A study of Mus musculus with 2 samples.

Results

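The cells described here are retinal progenitors of the mouse embryo with few of the histone transcripts of mid S phase and few of the mitotic transcripts of G2/M that the rule counts. They are called cells in G1 or early S here, although cells that have left the cycle cannot be told apart from G1 by this rule. They were chosen by raw UMI counts (UMIs are the molecular tags that count captured transcripts). A member had at least 1 UMI of Fgf15, at least 3 of Sfrp2, at most 2 of Atoh7 and 0 of Gja1 and Otx1. Its sum of Cenpf, Ube2c, Ccnb1, Cdc20 and Plk1 was below 10 and its sum of Hist1h1b and Hist1h2ae was below 3. Barcodes with under 500 genes or over 10% mitochondrial UMIs had been set aside first. Of 9395 cells kept in both libraries, 1187 were members. The albino library gave 367 members of 3512 kept cells, and the pigmented library gave 820 of 5883. Since those 12 genes chose the members, their levels are not findings, and differences from other cells set by the same genes are given as descriptions without a test.

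The study compared sorted cells of the embryonic peripheral retina, which includes the ciliary margin, between albino and pigmented mice, with 1 droplet library of each. All embryos carried the a-Cre;Td alleles, in which an α-Cre transgene (active in peripheral retina) turns on the red protein TdTomato, and cells were sorted for that signal at E13.5. Each library pooled optic cups of 3 embryos after papain digestion. The albino library bears the strain label Swizz ICR. The pigmented library bears the label Tyrc2j. A tyrosinase allele of that name is known to cause albinism, so the label conflicts with the library's title. The titles were used, and all albino over pigmented ratios depend on them. Strain, pool and library preparation cannot be told apart from pigmentation. The mix of sexes also differed, in part only: 97.8% of albino members had an Xist UMI and no Y-linked UMI, against 31.0% of pigmented members. A Y-linked UMI without Xist occurred in 0 of 367 albino members, which allows a share of up to 0.817%, against 43.4% of pigmented members. Each group is a single library, so no difference between the groups has a replicate check, no test between them was made, and all intervals are exact 95% intervals of counting error only.

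A proliferating progenitor passes from mitosis into G1, where cyclin D kinases release E2F transcription factors from pocket proteins. E2F factors switch on genes for DNA replication, among them those of the Mcm2 to Mcm7 helicase, which is loaded on origins with Cdc6 and Cdt1 before S phase. Cyclin E then helps to fire origins, replication-dependent histone genes are used in step with DNA synthesis, and mitotic genes follow in G2. In the early retina, progenitors that leave this cycle switch on Atoh7 and become ganglion cells and other first-born neurons, while cells at the rim of the optic cup form the ciliary margin.

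Promoter sequences of licensing and G1/S genes are shown because many of these genes are known E2F targets. RefSeq promoters of build GRCm38.p6 (250 bases before to 50 after each start) were searched on both strands for TTTCCCGC, TTTCGCGC, TTTGCCGC and TTTGGCGC, words of the known E2F site, where matches on opposite strands can overlap. Of 27025 genes, 2.61% held such a match in any promoter, and of 32851 promoters, 2.26%. Among listed genes with a promoter in the search, 8 of 14 licensing and helicase genes and 6 of 21 fork and nucleotide genes held one. On the list of G1/S regulators and E2F targets, called G1/S genes here, 11 of 19 did. Since E2F targets were put on that list, its share is no independent result. A match was also held by 3 of 7 G1 cyclins, kinases and pocket proteins, 3 of 12 ribosome biogenesis genes and 1 of 6 CDK inhibitors. The same was true of 1 of 9 Notch genes, 1 of 25 G2/M genes, 0 of 14 progenitor factors and 0 of 15 neurogenic genes. The 150 bases before the start are given 5′ to 3′ for 4 genes with a match there, with matches in capitals. They are Mcm6 (chr1:128359706-128359855, minus strand), Cdc6 (chr11:98908001-98908150, plus strand), Hells (chr19:38930840-38930989, plus strand) and Cdca7 (chr2:72476069-72476218, plus strand).
Mcm6: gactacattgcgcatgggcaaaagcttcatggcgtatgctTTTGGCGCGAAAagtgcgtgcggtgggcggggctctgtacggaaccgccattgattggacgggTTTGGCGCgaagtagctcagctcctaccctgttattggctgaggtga
Cdc6: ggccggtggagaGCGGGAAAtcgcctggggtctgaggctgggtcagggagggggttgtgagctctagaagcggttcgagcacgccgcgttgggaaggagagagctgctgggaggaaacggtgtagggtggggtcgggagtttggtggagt
Hells: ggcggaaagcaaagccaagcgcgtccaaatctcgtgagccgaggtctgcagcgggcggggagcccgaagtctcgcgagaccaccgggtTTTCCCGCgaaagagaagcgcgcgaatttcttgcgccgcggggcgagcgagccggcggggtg
Cdca7: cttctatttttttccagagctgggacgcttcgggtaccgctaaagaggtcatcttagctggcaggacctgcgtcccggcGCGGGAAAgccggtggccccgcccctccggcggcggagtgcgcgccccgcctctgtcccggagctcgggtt
The Mcm6 stretch holds 3 matches, the first 2 of them overlapping, and the others hold 1 each. A match describes letters and not a bound site.

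Members had a median of 8411 UMIs and 2847 genes per cell in the albino library and 8310.5 UMIs and 2867 genes in the pigmented library. The shallowest members had 653 and 634 UMIs. All albino members together held 3177337 UMIs and all pigmented members 7196500. Levels below are CPM, UMIs of a gene per 1000000 UMIs of the same cells. The libraries shared 8 barcodes; none was a member in both, and 3 member barcodes occurred in the other library. Fgf15 ran from 1 to 27 UMIs per albino member and from 1 to 26 per pigmented member, with a median of 4 in both. Sfrp2, a secreted Wnt antagonist, had a median of 22 UMIs in both. Near the limits, 52 albino and 89 pigmented members had a histone sum of 2, against 26 and 57 cells just outside at 3. A histone sum of 0 was found in 205 albino and 492 pigmented members and a mitotic sum of 0 in 191 and 441, so many members held some of these transcripts. At the mitotic limit 4 albino and 9 pigmented members had a sum of 9, against 3 and 5 cells at 10. Single UMIs of Gja1 or Otx1 kept 92 albino and 176 pigmented cells outside.

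Markers of most other cell types were lower in members than over all kept cells. The 11 ganglion cell markers summed to 324 CPM in albino and 301 in pigmented members, against 4914 and 2633 over all kept cells of the same libraries, and 12 albino and 17 pigmented members carried at least 5 UMIs of them. The 10 ciliary margin markers, of which the gate keeps Gja1 and Otx1 at 0, were nearer, at 240 and 217, against 253 and 350. At least 5 UMIs of them were carried by 45 albino and 91 pigmented members. Pigment cell markers summed to 2.52 and 3.33 with Dct, Tyrp1 and Mlana at 0 in albino members, and macrophage markers to 0.629 and 0.834. The 4 endothelial markers summed to 36.8 and 43.5 in members, against 19.0 and 30.6 over all kept cells, but Kdr gave 113 of the 117 albino and 306 of the 313 pigmented UMIs, and Pecam1 was at 0 in albino and Cdh5 at 0 in pigmented members. The part of other cells' RNA in the results was not tested. Scrublet called 0 of the albino and 4 of the pigmented members doublets, out of 6 and 168 calls in all kept cells.

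Members were set beside other progenitors of the same gate that failed a cycle limit. Histone-rich cells (histone sum at least 3, mitotic sum below 10) numbered 300 albino and 449 pigmented, and G2/M cells (mitotic sum at least 10) numbered 218 and 466. Their median depths were 10040 and 9564 UMIs (histone-rich) and 12475 and 12061 UMIs (G2/M), above those of members. The limits act on raw UMIs, so the class of a cell depends on its depth as well as on its cycle phase. When cells thinned to 5000 UMIs were gated, 139 albino and 302 pigmented cells fell in the G2/M class. A gene was called higher or lower where its level differed by over 1.5-fold the same way in both libraries, with 1 UMI added per side and at least 100 UMIs in all. Over histone-rich cells, 1.05% of 9625 genes were called higher in members and 3.51% lower. Over G2/M cells 3.63% of 9714 were higher and 3.74% lower.

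The 3 marker genes of the label that took no part in the gate were Mcm3, Ung and Ccne2, and they did not all set members apart. Ung, which removes uracil from DNA, stood at 68.9 CPM in albino and 72.5 in pigmented members, against 7.91 and 9.44 in G2/M cells. The ratio over G2/M cells was 8.72 (5.66 to 14.0) in the albino and 7.68 (5.85 to 10.3) in the pigmented library. Over histone-rich cells, at 63.9 and 55.8, Ung was 1.08 (0.886 to 1.31) and 1.30 (1.12 to 1.51) times as high. Mcm3, a helicase subunit, stood at 153 and 159 in members, against 65.7 and 76.3 in G2/M cells and 156 and 162 in histone-rich cells. Ccne2, the S-phase entry cyclin E2, stood at 63.9 and 69.2 in members, against 21.7 and 20.02 in G2/M cells but 163 and 167 in histone-rich cells. So all 3 genes were above G2/M cells, while against histone-rich cells Ccne2 was lower by over 1.5-fold and the other two were not called. Ccne2 was highest in the histone-rich cells among these 3 classes. Members and gene lists were chosen with earlier results of these data known. The levels of these 3 label genes are therefore descriptions and no independent support for the label. In cells thinned to 5000 UMIs, 27.4% of 321 albino and 29.2% of 736 pigmented members had an Ung UMI, against 0.225% and 1.34% of ganglion cells, a class that should lack it. Before thinning the Ung shares were 37.9% and 41.5% of members, whose median depth of 8411 and 8310.5 UMIs compares with 14732.5 and 15290 in ganglion cells.

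**Figure D1:**
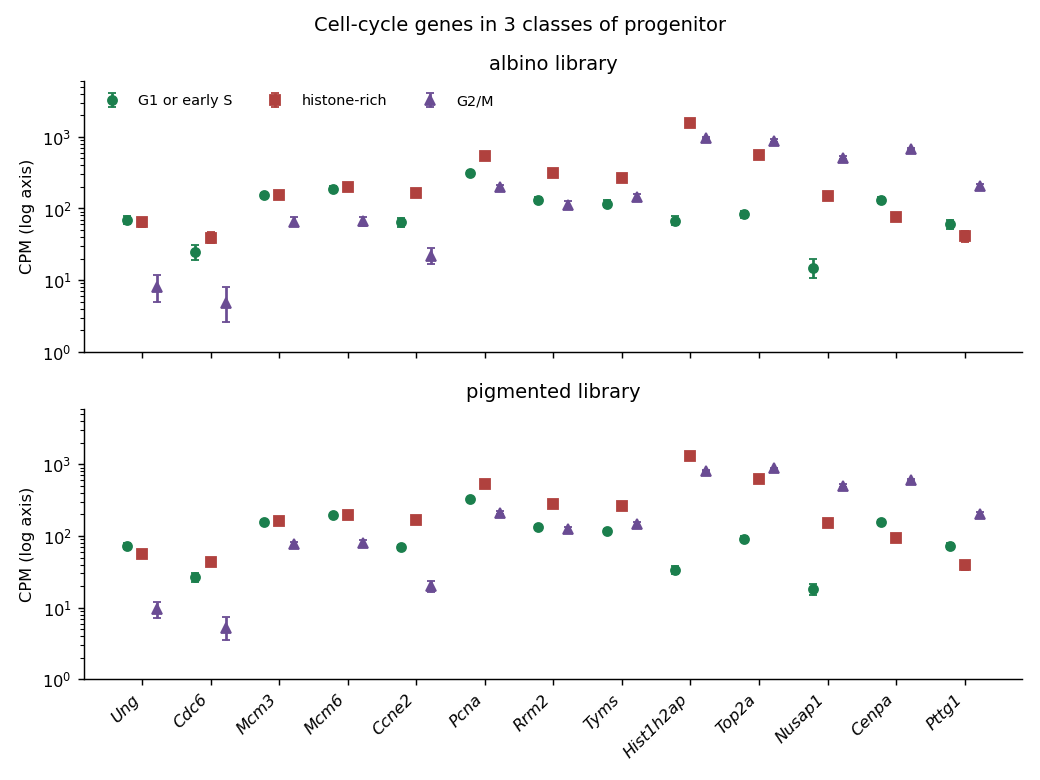
CPM (log axis) of 13 cell-cycle genes in G1 or early S members, histone-rich cells and G2/M cells, albino library above and pigmented library below, with exact 95% Poisson intervals. Mcm3 and Mcm6 lay together in members and histone-rich cells (Mcm3 at 153 and 156 in the albino library), while Ccne2, Pcna, Rrm2 and Tyms were lower in members.

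Helicase and licensing genes of members resembled those of histone-rich cells in Mcm2 to Mcm7, while 7 other listed genes were lower. None of the 6 helicase genes was called against histone-rich cells, the lowest ratio being 0.84 for Mcm7 in the albino library and the highest 1.08 for Mcm2 in the pigmented library. Of 19 listed licensing genes, 0 were higher and 7 were lower, against 3.51% of all genes lower. These were Cdc6, Cdc45, Cdc7, Dbf4, Gins3, Gmnn and Mcm10. Dbf4, the activating partner of the Cdc7 kinase that fires origins, stood at 32.4 and 33.3 in members, against 81.3 and 81.0 in histone-rich cells. Gmnn (geminin), which blocks renewed loading, stood at 185 and 193 in members, against 364 and 354. Over G2/M cells 9 of 19 were higher and 1, Dbf4, was lower, against 3.63% and 3.74% of all genes. Cdc6, the loader of the helicase, stood at 24.5 and 26.8 in members, against 4.81 and 5.21 in G2/M cells. The other 8 were Cdt1, Orc1, Gins2 and Mcm2 to Mcm6. The promoter stretches of Mcm6 and Cdc6 given above belong to genes of this group.

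Genes of the replication fork and of nucleotide supply were lower in members than in histone-rich cells. All 25 genes had a lower level in members in both libraries, with median log2 ratios of -0.75 (albino) and -0.59 (pigmented), against medians of 0.03 and 0.02 over all genes, and 12 of 25 were called lower, against 3.51% of all genes. Rrm2, a subunit of the enzyme that makes deoxynucleotides, stood at 132 and 133 in members, against 312 and 279. Tyms, which makes thymidylate, stood at 117 in members of both libraries, against 270 and 263. Pcna, the sliding clamp of DNA polymerases, stood at 318 and 326 in members, against 536 and 540. The other 9 called were Fen1, Lig1, Rfc4, Rfc5, Pola1, Pole, Prim2, Rrm1 and Tk1. Over G2/M cells 5 of 25 were higher, among them Pcna, Pola2, Pole2 and Chaf1b, and 0 lower, with medians of 0.16 and 0.07, against 0.04 and 0.05 over all genes.

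Regulators of the G1/S step and E2F targets were called in both directions against G2/M cells and in 1 direction against histone-rich cells. Of 23 listed genes, 8 were lower in members than in histone-rich cells and 0 higher, against 3.51% and 1.05% of all genes, with medians of -0.58 and -0.54, against 0.03 and 0.02 over all genes. Besides both cyclin E genes these were E2f2, E2f7, E2f8, Mybl2, Clspn and Atad2. E2f8, a repressor of the E2F family, stood at 8.18 and 7.50 in members, against 39.2 and 30.9 in histone-rich cells. Over G2/M cells 8 were higher and 2 lower, against 3.63% and 3.74% of all genes. The higher ones were Ung, Ccne2, E2f1, E2f2, Dtl, Hells, Cdca7 and Msh6, and the lower ones were E2f7 and E2f8. Cdca7, a chromatin factor that works with the remodeller Hells, stood at 185 and 220 in members, against 90.1 and 109 in G2/M cells and 181 and 165 in histone-rich cells.

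Few genes of the cyclin D module were called. Of 13 G1 cyclins, kinases and pocket proteins 0 were called against histone-rich cells, where 1.05% of all genes were higher and 3.51% lower. Over G2/M cells Ccnd2 and Myc were higher, against 3.63% of all genes. Ccnd1, the main D cyclin of retinal progenitors, stood at 1322 and 1373 in members, against 1464 and 1536 in histone-rich cells. CDK inhibitors, which hold G1 kinases back, were not raised as a group: Cdkn1b, Cdkn2c and Cdkn2d were lower than in G2/M cells, with Cdkn1b at 51.3 and 56.3, against 98.7 and 88.5. Of 5 inhibitors tested against histone-rich cells 2 were lower, Cdkn2c and Cdkn2d, and 1 was higher, Cdkn1a, at 5.98 and 8.48 against 3.80 and 3.53. Cdkn1c, the p57 inhibitor, stood at 200 and 198 in members, against 165 and 178 in histone-rich cells and 144 and 152 in G2/M cells.

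Histone genes outside the gate followed the 2 that set it, so their counts are a description. Of 17, 16 were lower in members than in histone-rich cells and 16 lower than in G2/M cells. Hist1h2ap, an H2A gene, stood at 68.0 and 33.9 in members, against 1543 and 1310 in histone-rich cells. Hist1h2bc, an H2B gene, went the other way, at 96.3 and 101 in members, against 42.4 and 49.9. Histone genes share near-identical sequence and most of their transcripts lack a poly(A) tail, so counts of single copies are uncertain. The other genes named as lowest by rule were Hist1h2af, Hist1h2bn, Hist1h1a, Hist2h2ac and Hist1h1d. Those named as highest over histone-rich cells were Hist1h2bc, Fgfbp3, Gpx3, Ptms, Cenpa and Epcam. Fgfbp3, a binding protein that releases FGFs, stood at 46.3 and 54.3 in members, against 19.9 and 27.8. Ptms (parathymosin) stood at 643 and 655, against 390 and 421.

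Mitotic genes left out of the gate were low in members, with 2 of them above histone-rich cells. All 29 were called lower than in G2/M cells, with medians of -2.97 and -2.81; the gate itself limits 5 mitotic genes, so this is no independent result. In cells thinned to 5000 UMIs the summed list had a median of 9 UMIs in albino and 10 in pigmented members, against 67 and 65 in G2/M cells, but the highest members reached 80 and 63 while the lowest G2/M cells had 17 and 12, so the classes overlapped. Against histone-rich cells 24 were lower and 2 higher. Top2a stood at 82.5 and 91.4 in members, against 565 and 633 in histone-rich cells. The 2 higher ones were Cenpa, the centromere histone, at 133 and 158 against 76.9 and 93.6, and Ccnb2 (cyclin B2), at 67.0 and 71.7 against 41.5 and 44.8. Pttg1 (securin), which holds separase until anaphase, stood at 60.1 and 72.7, against 40.8 and 38.9, with ratios of 1.47 (1.17 to 1.86) and 1.87 (1.57 to 2.23), the first under the limit for a call. The genes named by rule over G2/M cells were Ung, Alkbh2, Cdc6, Olfr889, Slc27a3 and Ccne2 as highest and Nusap1, Fam83d, Prc1, Kif11, Hmmr and Aurka as lowest. Alkbh2, a DNA repair dealkylase, stood at 39.3 and 39.2 in members, against 8.25 and 7.97 in G2/M cells. Nusap1, a spindle protein, stood at 14.8 and 18.2, against 510 and 506.

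Members differed among themselves in helicase transcripts. In cells thinned to 5000 UMIs the sum of Mcm2 to Mcm7 ran from 0 to 15 UMIs with a median of 4 in 321 albino members, and from 0 to 18 with a median of 5 in 736 pigmented members. It was 0 in 6.54% and 4.08% of members, against 18.5% and 12.1% of G2/M cells and 69.4% and 64.8% of ganglion cells. Across members the sum had Spearman correlations of 0.64 and 0.51 with the fork and nucleotide list and of 0.06 and 0.08 with the histone list. The gate limits histone transcripts, and the histone list had a median of 2 UMIs in members, against 20 and 22 in histone-rich cells. The low correlations with that list therefore cannot be read as a contrast to the fork list. These are descriptions over cells that share a library and a depth of 5000 UMIs.

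**Figure D2:**
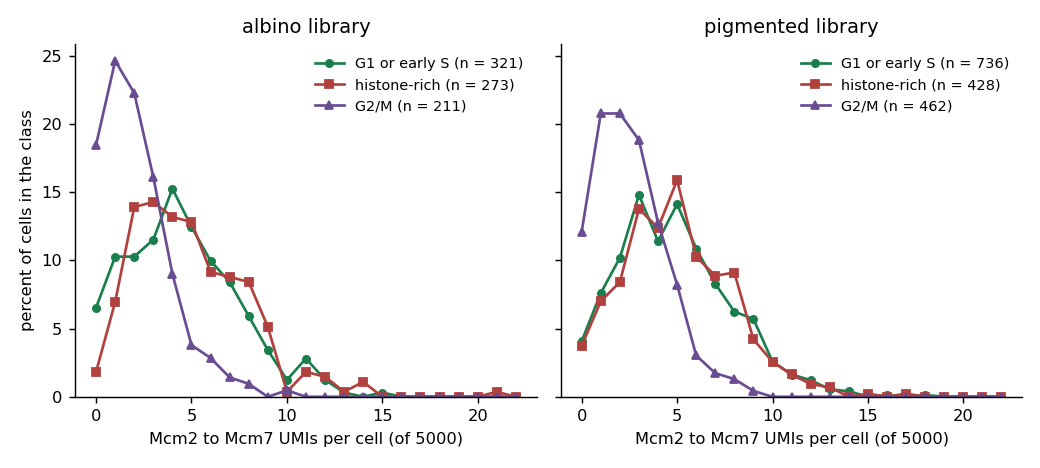
Percent of cells (vertical axis) by the number of Mcm2 to Mcm7 UMIs per cell after thinning to 5000 UMIs (horizontal axis), albino library left and pigmented library right, for members, histone-rich cells and G2/M cells. Members and histone-rich cells largely overlapped, with medians of 4 (albino) and 5 (pigmented) in both classes, while G2/M cells had a median of 2 in both.

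Members were then divided by that sum into 3 groups of equal size, with 107 albino and 245 pigmented cells in each. The Mcm-rich group had at least 6 UMIs and the Mcm-poor group at most 3; 32 albino and 80 pigmented members stood at the upper limit, where ties were broken by cell order. Median full depths were 8794 UMIs in Mcm-rich and 8636 in Mcm-poor members (albino), and 8691 and 8817 (pigmented). Of 4571 genes, 2.3% were called higher in Mcm-rich members in both libraries and 0.547% lower. Since the helicase genes chose these groups and belong to the same program, the following values are descriptions.

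Replication genes were higher together with the helicase. Of 22 fork and nucleotide genes with enough UMIs, 17 were called higher in Mcm-rich members and 0 lower, with medians of 1.43 and 0.87, against 0.00 and 0.03 over all genes. Of 18 G1/S genes 11 were higher and 0 lower. Ccne2 stood at 114 and 104 in Mcm-rich, against 18.7 and 37.6 in Mcm-poor members, with ratios of 6.10 (3.10 to 13.4) and 2.78 (1.97 to 3.99). Tk1, thymidine kinase, stood at 59.8 and 54.7, against 7.48 and 17.1. The genes named as highest by rule were Pclaf, Dscc1, Wdr76, Gmnn, Ccne2 and Uhrf1. Pclaf, a PCNA-binding protein, stood at 460 and 393 in Mcm-rich members, against 95.3 and 128.

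The mitotic list divided between these groups. Of 16 tested, 3 were higher in Mcm-rich members (Top2a, Cdk1 and Smc4) and 6 were lower (Cenpa, Pttg1, Knstrn, Tpx2, Ccna2 and Cdca3). Cenpa stood at 59.8 and 107 in Mcm-rich members, against 179 and 202 in Mcm-poor members. Top2a, which untangles replicated DNA, stood at 133 and 131, against 43.0 and 41.6. Cenpa, one of the 2 mitotic genes called above histone-rich cells, was thus higher in members poor in helicase transcripts. The genes named as lowest by rule were Stmn2, Gap43, Cenpa, Aldh1a1, Tmsb4x and Rtn1, of which Stmn2, Gap43 and Rtn1 are neuronal. Stmn2 stood at 20.6 and 19.6 in Mcm-rich members, against 99.1 and 70.2; whether neuronal RNA from other cells takes part in this was not tested. Ccnd2 was also lower in Mcm-rich members, at 43.0 and 36.7, against 71.0 and 95.5 in Mcm-poor members. None of 19 progenitor transcription factors tested was called, against 2.3% of all genes higher and 0.547% lower.

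**Figure D3:**
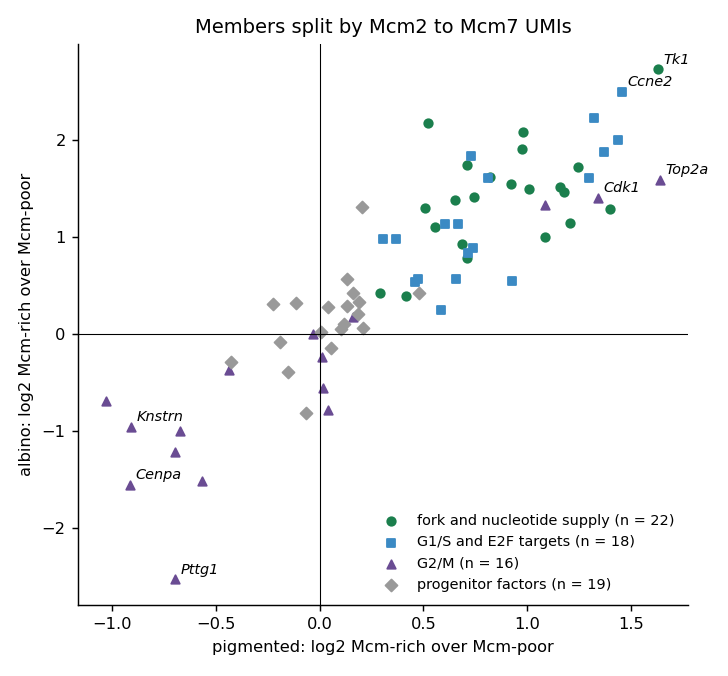
Each point is a listed gene, with the log2 ratio of Mcm-rich over Mcm-poor members by Mcm2 to Mcm7 UMIs in the albino library (vertical axis) and in the pigmented library (horizontal axis). Fork and G1/S genes lay above 0 in both, no progenitor factor was called, and the G2/M list split, with Top2a and Cdk1 high and Cenpa, Pttg1 and Knstrn low.

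Retinal identity genes did not stand apart from other genes across the cycle classes. Of 20 progenitor transcription factors 0 were called against histone-rich or G2/M cells. Of all genes 1.05% were higher and 3.51% lower against histone-rich cells, and 3.63% and 3.74% against G2/M cells. The medians of the list lay between -0.04 and 0.00, against 0.02 to 0.05 over all genes. Six6 and Rax, eye field factors, stood at 618 and 453 in albino and at 602 and 437 in pigmented members.

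Few signalling genes were called across the cycle classes, near the share of all genes, and more were called, in both directions, against Atoh7 and Gja1/Otx1 cells. Of 11 Notch, 12 FGF, 13 Wnt and 8 Hedgehog genes tested, 0 were called against histone-rich cells. Of all genes 1.05% were higher there and 3.51% lower. Over G2/M cells Jag1 was higher and Lfng lower, against 3.63% and 3.74% of all genes. Over Gja1/Otx1 cells 4 of 10 Notch, 6 of 11 FGF, 3 of 13 Wnt and 0 of 7 Hedgehog genes were higher. In the same order 1, 0, 2 and 2 were lower, against 5.15% of all genes higher and 3.39% lower. Over Atoh7 cells 2 of 10 Notch, 2 of 11 FGF, 4 of 11 Wnt and 3 of 7 Hedgehog genes were higher. There 2, 1, 0 and 0 were lower, against 3.25% of all genes higher and 3.16% lower. Fgf9, a ligand of FGF receptors, stood at 109 and 117 in members, against 24.0 and 34.5 in Gja1/Otx1 cells and 70.3 and 50.6 in Atoh7 cells. Fgf3, another ligand, stood at 64.5 and 55.4, against 3.42 and 3.51 in Gja1/Otx1 cells and 32.8 and 23.3 in Atoh7 cells. Both ligands were thus called higher than in either kind. Notch1, a receptor, stood at 55.1 and 46.1, against 13.7 and 15.2 in Gja1/Otx1 cells, while its ligand Jag1 stood at 7.24 and 6.67, against 32.5 and 40.9. Gas1, a co-receptor of Hedgehog ligands, lay between these kinds, at 54.4 and 59.2 in members, against 318 and 322 in Gja1/Otx1 cells and 18.7 and 31.3 in Atoh7 cells. Fzd5, a Wnt receptor of the eye field, stood at 151 and 150.5, against 82.2 and 51.5 in Gja1/Otx1 cells and 73.4 and 84.4 in Atoh7 cells. No gene of these 4 lists was called between albino and pigmented members. Of all genes 0.578% were higher and 0.812% lower there, so this is near the share of all genes.

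Members included several positions of the retina. Foxd1, a temporal factor, had a UMI in 50 of 321 thinned albino and 134 of 736 pigmented members. Tbx5, a dorsal factor, occurred in 11 and 13 members and Vax2, a ventral factor, in 98 and 236, with 0 cells holding both; these zeros allow shares of up to 0.935% and 0.408% of thinned members. Hmx1, known from nasal retina, was detected in 26.0% and 29.1% of members with Foxd1, against 50.6% and 60.3% of those without. The retinoic acid enzymes Aldh1a1 (dorsal) and Aldh1a3 (ventral) were less exclusive, with both in 14 and 25 members.

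Against cells with at least 3 Atoh7 UMIs and otherwise the same gate (56 albino and 103 pigmented cells), members had lower levels of neurogenic genes. The Atoh7 cells had median depths of 9783.5 and 10202 UMIs. Of 8597 genes 3.25% were called higher in members and 3.16% lower. Of 16 neurogenic genes tested, 13 were lower and 0 higher, with medians of -1.50 and -1.82. When Scrublet calls were removed, 55 albino and 83 pigmented Atoh7 cells were left. Over all settings tried, that one included, the neurogenic medians ran from -1.80 to -0.66 (albino) and from -2.03 to -1.49 (pigmented). Gadd45a stood at 37.8 and 45.6 in members, against 470 and 607, and Neurod1, a neuronal differentiation factor, at 14.5 and 22.6, against 198 and 258. Of 20 progenitor factors 8 were higher, with the Notch target Hes1 at 805 and 774 against 490 and 334. Hes5, another Notch target, was lower, at 239 and 227 against 412 and 500. Of 25 fork and 18 licensing genes 0 were called, and of 21 G1/S genes 1, Cdca7, was. The libraries differed in these lists: 10 albino and 24 pigmented fork genes of 25 lay above 0, with medians of -0.01 and 0.27, against 0.04 and 0.05 over all genes, and 8 and 16 licensing genes of 18. That difference between the libraries was not tested. The genes named by rule were Cp, Plagl1, Cyp26a1, Aldh1a3, Id3 and Crhbp as highest and Igfbpl1, Rassf4, Gadd45a, Isl1, Neurod1 and Ppp1r14a as lowest.

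Against cells with at least 3 UMIs of Gja1 and Otx1, genes of the ciliary margin, members had more replication and neurogenic transcripts. These cells numbered 40 albino and 111 pigmented, with median depths of 13857 and 14688 UMIs. Of 8720 genes 5.15% were called higher in members and 3.39% lower. Of 25 fork genes 15 were higher and 0 lower, with medians of 0.67 and 0.94, and of 14 neurogenic genes 11 were higher and 0 lower. Hes5 stood at 239 and 227, against 24.0 and 12.9. The D cyclins went opposite ways: Ccnd1 stood at 1322 and 1373 in members, against 550 and 623, and Ccnd2 at 49.1 and 59.8, against 339 and 404. Cdkn1c stood at 200 and 198, against 719 and 795. The genes named by rule were Mgarp, Hes5, Cox4i2, Kdr, Ckb and Fgf3 as highest and Hpgd, Sgk1, Ltbp1, Rab38, Trpm1 and Ccnd2 as lowest; Trpm1 and Rab38 are known from pigment cells. When the gate was applied to cells thinned to 5000 UMIs, 5 and 14 margin cells were left and the fork median of the pigmented library turned to -0.10.

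Members made up a smaller share of the albino library. They were 10.4% of kept albino cells (9.46 to 11.5), against 13.9% of kept pigmented cells (13.1 to 14.8), a ratio of 0.750 (0.661 to 0.849). Among all cells of the gate without its cycle limits, they were 41.5% of 885 albino cells (38.2 to 44.8), against 47.3% of 1735 pigmented cells (44.9 to 49.6), a ratio of 0.877 (0.774 to 0.994). Histone-rich cells were 33.9% of the same albino cells, against 25.9% of the pigmented ones, with a ratio of 1.31 (1.13 to 1.52), and G2/M cells 24.6% against 26.9%, with a ratio of 0.917 (0.777 to 1.08). In cells with Xist and without Y-linked UMIs the log2 ratio of the member share was -0.48 of kept cells, against -0.42 in all cells.

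**Figure D4:**
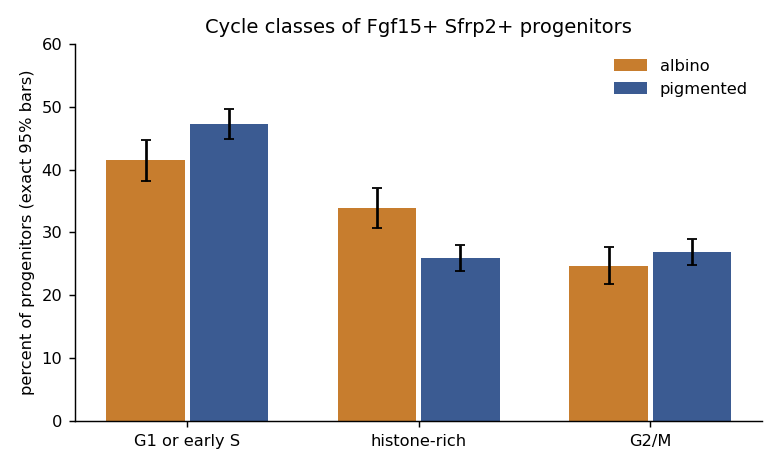
Percent of Fgf15 and Sfrp2 progenitors (885 albino, 1735 pigmented cells) in each cycle class, with exact 95% binomial intervals, albino bars left of pigmented bars. G1 or early S cells were 41.5% of albino and 47.3% of pigmented progenitors, and histone-rich cells 33.9% and 25.9%.

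Within members 0.578% of 8131 genes were called higher in the albino library and 0.812% lower, with a median log2 ratio of -0.019. Cycle lists differed little between the libraries, and no gene of the licensing, G1/S or fork lists was called. The G1/S median was -0.08, with 16 of 20 genes below 0, and lay between -0.16 and -0.020 under other settings. Hells and Cdca7, whose promoters are shown above, had ratios of 0.841 (0.768 to 0.921) and 0.842 (0.765 to 0.927). Ccnd2, the cyclin named in the study's title, stood at 49.1 in albino and 59.8 in pigmented members, a ratio of 0.822 (0.680 to 0.989). In cells with Xist and without Y-linked UMIs its log2 ratio was 0.14, against -0.28 in all members, and -0.57 when thinned cells were gated, so its direction rests on which cells were counted.

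Immediate early genes, which respond within minutes to stimuli and to tissue dissociation, mostly had lower levels in albino members, without passing the fold limit. Fos stood at 286 in albino and 405 in pigmented members, a ratio of 0.706 (0.654 to 0.761), and Fosb at 107 and 161, a ratio of 0.667 (0.589 to 0.753). Of 10 listed genes tested, 8 lay below 0, with a median of -0.33. In members 0 passed the 1.5-fold limit, against 0.578% of all genes higher and 0.812% lower. In histone-rich cells the median was -0.40 and 3 of 10 were called lower, against 1.09% of all genes lower and 0.649% higher there. In G2/M cells it was -0.29 with 2 of 10 lower, against 1.01% of all genes lower and 0.652% higher. Both libraries were dissociated with papain, and what handling contributed was not tested.

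Of 5 dorsal and 4 ventral genes tested, 0 passed the fold limit, against 0.578% of all genes higher and 0.812% lower. For so few genes this is near the share of all genes. Some had counting intervals that excluded 1. Aldh1a1, a retinoic acid enzyme of dorsal retina, stood at 336 in albino and 226 in pigmented members, a ratio of 1.48 (1.37 to 1.60), and had a UMI in 36.1% of thinned albino and 24.5% of pigmented members, against 1.58% and 0.671% of ganglion cells. Cyp26a1, which breaks down retinoic acid, stood at 126 and 83.7, a ratio of 1.51 (1.33 to 1.71), and its log2 ratio was 0.31 in Xist cells without Y-linked UMIs, against 0.59 in all members. The ventral Aldh1a3 stood at 67.4 and 87.8, a ratio of 0.767 (0.654 to 0.897), and the BMP receptor Bmpr1b at 22.7 and 30.3, a ratio of 0.748 (0.565 to 0.981). Vax2 had a ratio of 0.885 (0.770 to 1.02) and Tbx2 one of 0.999 (0.766 to 1.29), so not all positional genes took part. The ventral list had a median of -0.28 in members and -0.52 in G2/M cells but 0.07 in histone-rich cells, so this difference was not shared by all cycle classes. The dorsal list had medians of 0.17 in members, 0.46 in G2/M cells and 0.14 in histone-rich cells, and Aldh1a1 had ratios of 1.62 in G2/M cells and 1.42 in histone-rich cells. In G2/M cells 1 of 5 dorsal genes was called higher and 2 of 4 ventral genes lower, against 0.652% and 1.01% of all genes there. Whether the 2 dissections sampled the same parts of the rim was not tested.

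Of 17 glycolysis and hypoxia genes 14 lay above 0 with a median of 0.10, against 3695 of 8131 genes in all. In members 2 were called higher and 0 lower, against 0.578% and 0.812% of all genes. In histone-rich cells 15 of 16 lay above 0 with a median of 0.11, and in G2/M cells 14 of 16 with a median of 0.08. Bnip3, a mitochondrial protein induced by hypoxia, stood at 52.2 in albino and 32.8 in pigmented members, a ratio of 1.59 (1.30 to 1.95). Pdk1 (pyruvate dehydrogenase kinase 1) stood at 28.0 and 18.2, a ratio of 1.54 (1.16 to 2.03). Over all settings tried, log2 ratios ran from 0.444 to 1.39 for Bnip3 and from 0.155 to 0.954 for Pdk1. The glycolytic enzyme Tpi1 had a ratio of 1.15 (1.08 to 1.22). Foxn4, a factor of amacrine and horizontal competence, stood at 45.01 and 31.8, a ratio of 1.41 (1.14 to 1.75), and Neurod1 was called lower with a ratio of 0.639 (0.450 to 0.892). Of 14 neurogenic genes tested, 8 lay above 0 with a median of 0.05, and Neurod1 was the 1 called.

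**Figure D5:**
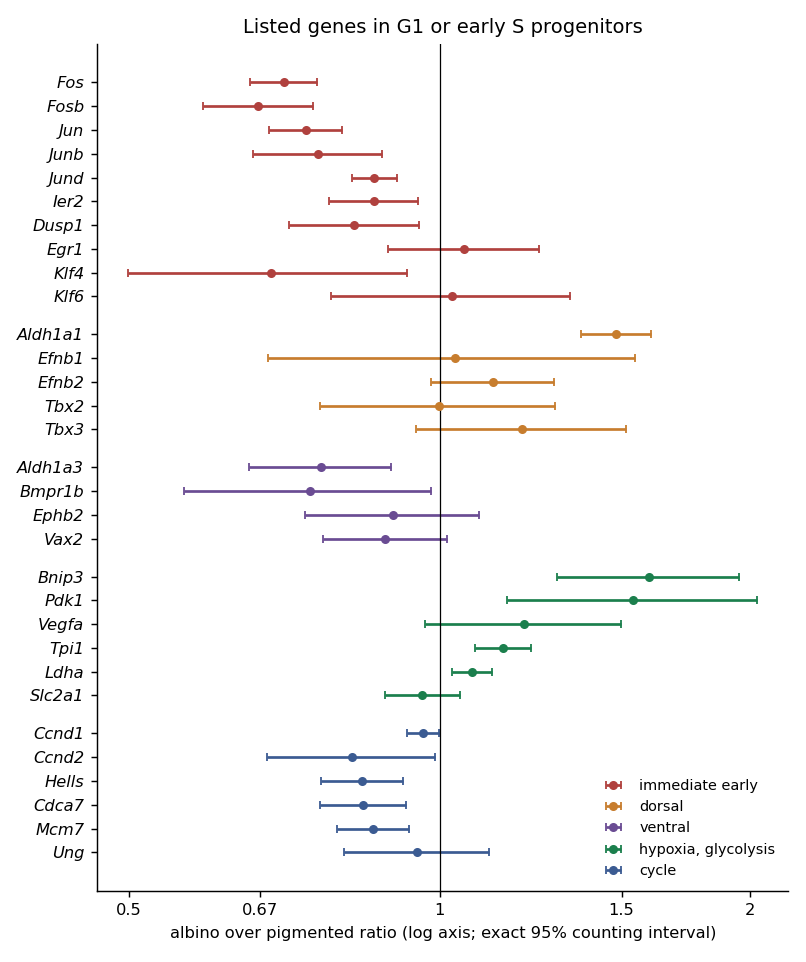
Albino over pigmented ratios (log axis) of listed genes in members, each with its exact 95% counting interval, grouped by list. Fos, Fosb, Jun and Junb lay below 1, Aldh1a1, Bnip3 and Pdk1 above 1, and Ccnd2 at 0.822.

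The genes named by rule as highest in albino members included Dqx1, Gal, Hist1h2ap, Igfbp5, Aldh1a1, Kif5c, Onecut2 and Cyp26a1, and those named as lowest were Sst, Txndc16, Tmem245, Gfod2, Eaf1, Rtl5, Atpaf2, Mfsd11, Tkfc and Fosb. Several held a large share of their UMIs in 1 cell, so ratios with 1 UMI added per side were also taken without the top cell of each library. One pigmented cell held 64.3% of the Txndc16 UMIs, and the ratio without top cells was 0.846, against 0.329 with them. Onecut2 had a ratio of 1.48 without them, against 1.85, and Atpaf2 one of 0.695, against 0.522, so these 3 no longer passed the fold. Sst, with 64.0% of its pigmented UMIs in 1 cell, had a ratio of 0.297, against 0.162. Dqx1 stood at 116 and 19.9 with 1 cell holding 37.6% of the albino and 1 holding 56.6% of the pigmented UMIs, and its ratio was 8.36 without these cells, against 5.84. Hist1h2ap, at 68.0 and 33.9, kept a ratio of 1.97 without them. Its ratio was 1.18 (1.13 to 1.22) in histone-rich cells, 1.18 (1.13 to 1.24) in G2/M cells and 0.423 (0.309 to 0.576) in ganglion cells. A difference of that size was thus seen only in members among these classes, where the gate limits 2 other histone genes. Tmem245 stood at 31.8 in albino and 80.9 in pigmented members, a ratio of 0.393 (0.315 to 0.486), and Gfod2 at 28.6 and 68.6, a ratio of 0.417 (0.330 to 0.523). In histone-rich and G2/M cells Tmem245 had ratios of 0.473 and 0.742. Gfod2 had ratios of 1.11 (0.863 to 1.42) and 1.11 (0.888 to 1.38) there, so its difference was not shared by the other cycle classes.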

How the data were processed

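The authors deposited whole-number UMI counts, 1 matrix for each library, from 10x 3' droplet chemistry according to the labels. Cell Ranger 2.1.1 and build mm10 are named in the submitters' processing notes, whereas Cell Ranger 5.0.1 stands in the headers of the matrices; which version made the counts is not settled. The gate was applied in Python 3.11.15 with NumPy 2.4.6, SciPy 1.17.1 and pandas 2.3.3. Doublets were called with Scrublet in Scanpy 1.11.5, run per library with a fixed seed, and were not removed in the main results.

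Levels are UMIs summed over cells per 1000000 UMIs (CPM). Shares have Clopper-Pearson intervals, levels Poisson intervals, and ratios the conditional exact interval, all at 95%. Promoters came from RefSeq. No test between libraries was made. Kept albino cells held 46103939 UMIs and kept pigmented cells 69589604. Members and gene lists were chosen with earlier results of these data known. Genes were named by rule: listed genes, plus the 10 highest and 10 lowest between libraries and the 6 of each between kinds of cell, ranked by the interval bound nearest 1, where a gene had 100 or more UMIs. This ranking left out Gm and Rik models, gate genes, Xist, Tsix and Y-linked genes, and genes of haemoglobin, ribosomal proteins and mitochondria. Alternatives changed the gate, cell filters, depth, UMI minimum, scaling and weighting. Some genes that the rule names are not reported here.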

Additional observations from a re-analysis of the deposited data

Results flagged for a closer look

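With 1 library per group no group was large enough to look for an outlying sample. Of 877 pairs of a listed gene and a neighbouring kind of cell with at least 20 UMIs on every side, 6 went opposite ways in the 2 libraries with both counting intervals excluding 1; the differences between the libraries were not tested. Hes5, a Notch target, had a ratio of members over G2/M cells of 1.18 in the albino library and 0.857 in the pigmented library. Aldh1a1 over Atoh7 cells had ratios of 2.13 (albino) and 0.846 (pigmented), and the glycolytic enzyme Pgk1 ratios of 0.831 and 1.13. Over Gja1/Otx1 cells, Sox4 had ratios of 1.38 (albino) and 0.857 (pigmented), Stmn2 1.75 and 0.707, and Ncl 0.881 and 1.07.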

How the results depend on the processing

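The member share kept its direction under all 10 alternative gates, with log2 ratios between -0.48 and -0.30 of kept cells and between -0.24 and -0.11 of progenitors. Counts of genes past the fold followed the UMI minimum. With at least 20 UMIs they were 890 between libraries and, for members over histone-rich, G2/M, Gja1/Otx1 and Atoh7 cells and for Mcm-rich over Mcm-poor members, 819, 1257, 1469, 1187 and 587, and with at least 500 UMIs 5, 165, 255, 214, 154 and 13, against 113, 439, 716, 745, 551 and 130. Weighting cells equally gave 255 between libraries, and Sfrp2 of at least 1 gave 921 over Atoh7 cells. Gating thinned cells gave 1963 over Gja1/Otx1 cells, from 5 and 14 cells; there the pigmented medians were -0.10 (fork) and -0.037 (licensing) and the albino G1/S median -0.073. With only Xist cells without Y-linked UMIs the pigmented fork median was 0.71. Gating thinned cells also gave medians of -0.55 (albino, fork, over histone-rich cells) and -0.66 (albino, neurogenic, over Atoh7 cells). The G1/S median between libraries was -0.16 with a histone sum under 2, -0.020 with thinned gating and -0.13 in Xist cells; Ccnd2 was -0.57 with thinned gating and 0.14 in Xist cells. Igfbp5 turned to -0.13 with thinned gating and Onecut2 to -0.10 with Sfrp2 of at least 1. Causes were not tested. Shares of members with a UMI were higher at greater depth than at 5000 UMIs: unthinned, Mcm3 59.4% and 67.2%, Ung 37.9% and 41.5% and Ccne2 30.8% and 35.5% (albino, pigmented); thinned to 8000 UMIs, 65.1% and 67.6%, 37.3% and 40.5%, and 31.1% and 37.2%. Leaving out each library's top cell was chosen after seeing the data. No paired analysis was possible because each group has 1 library.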
